A study of Mus musculus with 25 samples.

Results

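Adipocytes are specialized for storing and burning fat, and a few genes mark them so strongly that their mRNA can be looked for in any tissue. White adipocytes keep triglyceride in a single large droplet coated by perilipin 1 and secrete hormones such as adiponectin and leptin. Brown adipocytes hold many mitochondria and burn fuel as heat through uncoupling protein 1. The heart lies in contact with epicardial and pericardial fat, while its muscle takes up fatty acids as its main fuel and keeps small droplets of its own. The mRNA of 8 adipocyte markers was therefore followed in mouse myocardium, with 6 markers of white or general adipocytes (Adipoq, Cfd, Retn, Lep, Plin1 and Car3) and 2 of brown adipocytes (Ucp1 and Cidea) described apart. The 8 genes were chosen by symbol, and the TPM of every transcript of a symbol was summed, out of 35969 genes that the table held in all. TPM expresses each transcript per unit of its length, as a share that sums to 1000000 in every library. It was divided here by a scaling factor per library, and the result is called scaled TPM.

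Left ventricular mRNA came from 25 male mice in 5 groups of 5, from a line backcrossed to C57BL6/J, and on diet for 16 weeks from an age of 8 to 10 weeks. WT CNTL mice were wild type on the control diet, in which fat gave 6% of daily energy. GPx4+/- CNTL mice had 1 of their alleles of Gpx4 disrupted, which encodes the enzyme that removes lipid hydroperoxides from membranes, and ate the same diet. WT HFHS and GPx4+/- HFHS mice ate a high fat high sucrose diet, with 35.5% of energy from lard-based fat, 38% from sucrose and 1.5% from cholesterol. WT HFHS + Carnosine mice were wild type on HFHS and drank 80 mM carnosine, a dipeptide that scavenges lipid aldehydes, from 7 weeks after the diet began. Each mouse was fasted before the heart was taken and was given either dextrose or saline, and which mouse was given which is not given in the sources used here. TPM keep no read counts and leave the depth of each single library unknown, and counting errors are therefore not stated.

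The libraries carried the labelled tissue, and some carried more. Scaled TPM of Gpx4 lay between 590 and 777 in the wild type mice and between 250.3 and 382 in GPx4+/- mice, without overlap. Cardiomyocyte genes were at high levels in every library, with the sum of 6 of them between 36181 and 45065. Myl7, the myosin light chain of atrial muscle, was at 0 to 24.8 in 19 libraries and over 50 in 6, although the tissue was labelled as left ventricle. Those 6 were WT CNTL replicate 3 (1705), GPx4+/- CNTL replicate 1 (1498), GPx4+/- HFHS replicate 4 (886), GPx4+/- CNTL replicate 2 (338), WT HFHS + Carnosine replicate 2 (283) and WT HFHS replicate 1 (99.6). GPx4+/- CNTL replicate 2 also held Alb, the albumin gene of liver, at 736, against at most 40.8 in any other library. The main differences of the tested markers are also given without them.

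The white markers were low in myocardium and concentrated in a few single libraries of every group, whereas Cidea was at a steady level in all 25. Scaled TPM averaged 2.22 for Car3, 1.04 for Cfd, 0.548 for Adipoq, 0.357 for Plin1, 0.218 for Retn and 0.0585 for Lep over the 25 libraries, and 27.9 for Cidea against 0.00535 for Ucp1. Cfd, Car3 and Cidea had a mean of at least 1 and were tested with limma together with 11983 genes in all, and the 5 other markers lay under that minimum and were compared by exact permutation only. In bulk tissue, fewer cells of a type and less RNA per cell cannot be told apart.

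Adipoq encodes adiponectin, the hormone that white adipocytes secrete most abundantly. In WT mice, scaled TPM of Adipoq was 0.442, 0, 3.01, 0 and 0.123 on CNTL (replicates 1 to 5), 0.733, 0.817, 0, 0.890 and 0.109 on HFHS and 0.221, 0.968, 0.0284, 0 and 0.120 on HFHS with carnosine. In GPx4+/- mice it was 1.61, 0.137, 0.427, 0.720 and 0 on CNTL and 0.0692, 0.104, 0, 3.17 and 0 on HFHS. WT CNTL replicate 3 and GPx4+/- HFHS replicate 4 stood at about the same height, in groups that differ in both diet and genotype, and the ranges of all 5 groups overlapped. WT HFHS was the group with the most even spread, with 3 mice between 0.733 and 0.890 and the others at 0.109 or listed at 0. Adipoq was listed at 0 in 7 libraries.

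Cfd encodes adipsin (complement factor D), a protease of the alternative complement pathway that adipocytes secrete. Cfd stood at 1.17, 0, 8.01, 0 and 0.130 in WT mice on CNTL, 1.23, 2.00, 0, 2.45 and 0 on HFHS and 0.350, 0.399, 0.0422, 0 and 0 on HFHS with carnosine. The GPx4+/- values were 5.05, 1.21, 0.227, 1.21 and 0 on CNTL and 0.0551, 0, 0.0611, 2.44 and 0 on HFHS. The highest value was in WT CNTL replicate 3, as for Adipoq on the control diet, while the carnosine group had no library above 0.399. The 5 groups overlapped, since each had at least 1 library at 0.

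Retn encodes resistin, a hormone that mouse adipocytes release. Scaled TPM of Retn in WT mice was 0.147, 0, 1.04, 0 and 0.0647 on CNTL, 0.552, 0.387, 0, 0.0667 and 0 on HFHS and 0.0581, 0.624, 0, 0.0507 and 0.0633 on HFHS with carnosine. Values of GPx4+/- mice were 0.429, 0.0544, 0.0566, 0.237 and 0.0682 on CNTL and 0, 0, 0, 1.49 and 0.0545 on HFHS. The same single library led each group as for Adipoq, except in WT HFHS, where replicate 1 was highest for Retn and replicate 4 for Adipoq.

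Lep encodes leptin, the satiety hormone whose mRNA rises with adipocyte size. The WT values of Lep were 0, 0, 0.266, 0 and 0 on CNTL, 0.0984, 0.139, 0, 0.187 and 0 on HFHS and 0.0133, 0.143, 0.0103, 0 and 0 on HFHS with carnosine. In GPx4+/- hearts they were 0.0532, 0, 0.0391, 0 and 0 on CNTL and 0.0126, 0, 0, 0.476 and 0.0250 on HFHS. Lep was listed at 0 in 13 of 25 libraries, 7 of them among the 10 CNTL mice, and stayed under 0.5 in every library. GPx4+/- HFHS replicate 4 held 32.5% of all Lep signal, the largest share of any white marker in 1 library, so no library held over 50% of a marker.

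Plin1 encodes the perilipin that coats the large droplet of adipocytes and gates lipolysis. In WT mice, scaled TPM of Plin1 was 0.171, 0.0768, 1.40, 0.0912 and 0.228 on CNTL, 0.481, 0.797, 0.0870, 0.674 and 0.0760 on HFHS and 0.202, 0.649, 0.0845, 0.0538 and 0.158 on HFHS with carnosine. In GPx4+/- mice it was 0.892, 0.160, 0.228, 0.345 and 0.144 on CNTL and 0.0885, 0.0590, 0.114, 1.65 and 0.0292 on HFHS. Plin1 was the only white marker above 0 in all 25 libraries, and outside the 6 libraries with high Myl7 it lay between 0.0292 and 0.797.

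Car3 encodes carbonic anhydrase 3, an abundant cytosolic protein of adipocytes that liver and slow skeletal muscle also make. Car3 stood at 0.946, 0, 9.41, 0.0797 and 0.144 in WT mice on CNTL, 3.41, 3.14, 0.0351, 2.39 and 0.165 on HFHS and 0.580, 2.57, 0.239, 0.222 and 0.0297 on HFHS with carnosine. The GPx4+/- values were 6.02, 10.8, 0.689, 1.01 and 0.149 on CNTL and 1.38, 0.238, 0.877, 10.9 and 0 on HFHS. Car3 departed most from the other white markers in GPx4+/- CNTL replicate 2, where it reached 10.8 with Adipoq at 0.137, and this was the library with Alb at 736. Car3 also stood out in GPx4+/- HFHS replicates 1 and 3, at 1.38 and 0.877 with Adipoq at 0.0692 and 0, and these libraries had the next highest Alb, at 40.8 and 23.0. The part of liver mRNA in these Car3 values was not tested.

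**Figure D1:**
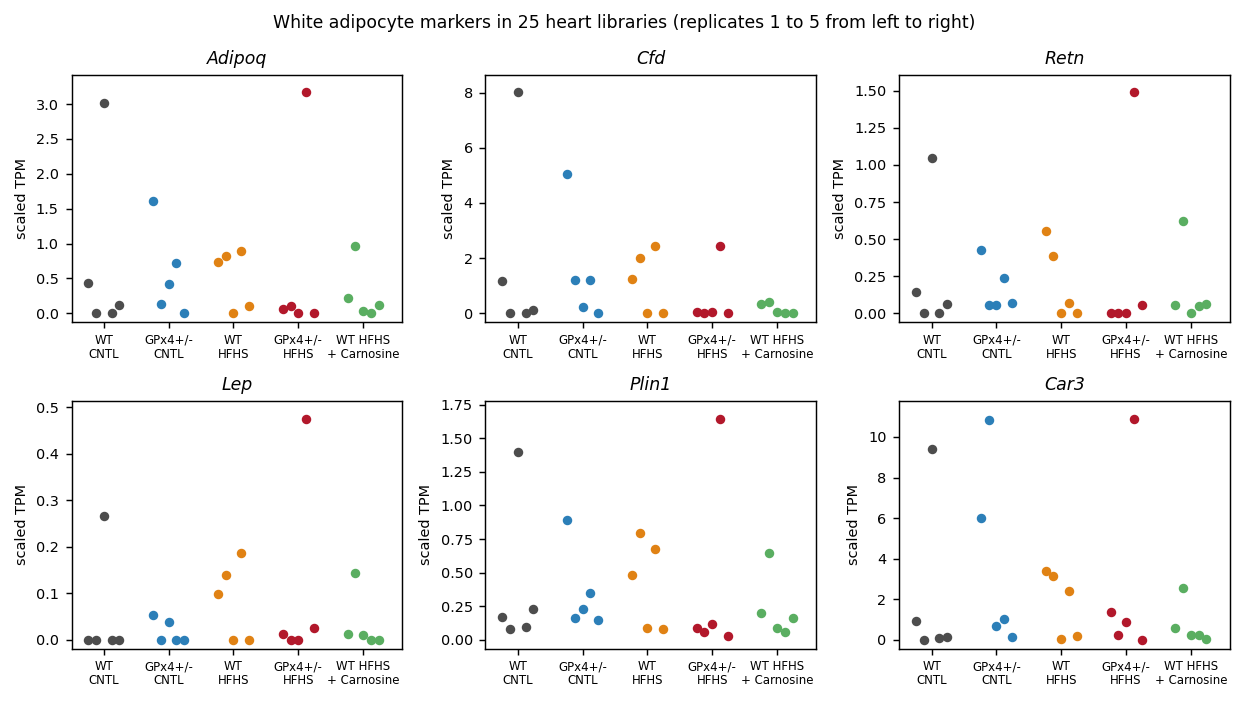
Scaled TPM of the 6 white markers (vertical axis, a different scale in each panel) in each library, with the 5 groups along the horizontal axis and replicates 1 to 5 from left to right within a group. WT CNTL replicate 3 and GPx4+/- HFHS replicate 4 are far above the rest of their groups in all 6 panels, and in WT HFHS 3 mice stand above the other 2.

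The white markers thus followed each other from library to library. Spearman's rho over the 25 libraries was between 0.620 (Retn with Car3) and 0.897 (Cfd with Plin1) for the 15 pairs of white markers, as a description of libraries that share 1 scaling and a few high members. WT CNTL replicate 3 and GPx4+/- HFHS replicate 4 were each the highest of their group for all 6 white markers, and so was WT HFHS + Carnosine replicate 2. GPx4+/- CNTL replicate 1 led its group for 5 of the 6, with Car3 as the exception. WT CNTL replicate 3, GPx4+/- CNTL replicate 1 and GPx4+/- HFHS replicate 4 together held 44.1% (Plin1) to 59.5% (Cfd) of each marker's total over 25 libraries. Among genes with a mean of at least 1, those most like Adipoq in rank order were Cfd (rho 0.893), Nnat (0.881), Rtl8c (0.873), Ptgr1 (0.831), Bace2 (0.816), Car3 (0.802), Ppp1r1b (0.751) and Ctso (0.739). Nnat, which encodes neuronatin of the endoplasmic reticulum, was on a list of adipocyte-enriched genes, and its rho was 0.847 without the 2 libraries with most Adipoq. Cidec, the droplet fusion protein of white adipocytes, lay under the minimum level for that ranking and had a rho of 0.848 with Adipoq. Cidec was at 2.32 in WT CNTL replicate 3, 1.70 in GPx4+/- CNTL replicate 1 and 2.67 in GPx4+/- HFHS replicate 4, with a median of 0.0647 over the 19 libraries with low Myl7.

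The libraries with white marker mRNA were largely those with atrial mRNA. The sum of the 6 white markers ran from 5.35 to 23.1 in the 6 libraries with Myl7 over 50, with a median of 13.2, and from 0.0768 to 7.28 in the other 19, with a median of 0.404. The 6 libraries held 73.5% of the white marker sum, and between 58.5% (Plin1) and 77.8% (Car3) of each marker. The overlap between the 2 sets of libraries came from WT HFHS replicates 2 and 4, with white sums of 7.28 and 6.66 at Myl7 of 24.8 and 9.50. WT HFHS replicate 1, with Myl7 of 99.6, had a white sum of 6.51, so these 3 WT HFHS mice were alike in white signal while their Myl7 differed. By rank among the 25 libraries, WT HFHS replicates 2 and 4 were still high in both, at 7 and 8 for Myl7 and 5 and 6 for white sum. The cut at 50 leaves both mice in the fits without the 6 libraries. Spearman's rho of Adipoq with Myl7 was 0.670. Of the other sorts of tissue, the summed level of 7 epicardial and mesothelial genes (Upk3b, Upk1b, Msln, Wt1, Lrrn4, Bnc1 and Krt19) was 12.3 in GPx4+/- CNTL replicate 1 and 8.56 in WT HFHS replicate 4, against a median of 3.69 over all libraries. Wt1 alone was at 1.81 to 3.75 in every library. The sum was 6.06 in WT HFHS replicate 1, 5.82 in WT HFHS + Carnosine replicate 2, 5.43 in WT CNTL replicate 3 and 5.10 in GPx4+/- HFHS replicate 4. It was 3.04 in GPx4+/- CNTL replicate 2 and 2.95 in WT HFHS replicate 2, with white sums of 12.4 and 7.28. That list was also at 7.16 in WT HFHS replicate 5 and 5.12 in WT HFHS + Carnosine replicate 3, whose white sums were only 0.350 and 0.404. Its part in the white signal, like that of atrial tissue, was not tested. Of 9 fast skeletal muscle genes, the myosins Myh1, Myh2 and Myh4 had no value above 0.0996, while Mylpf ran from 0.449 to 2.41, Tnni2 from 0.830 to 3.09 and Pvalb from 0 to 3.10. The sum of the 9 was 3.75 to 7.65 in WT CNTL, 3.17 to 6.47 in GPx4+/- CNTL, 3.02 to 4.53 in WT HFHS, 2.36 to 5.99 in GPx4+/- HFHS and 3.14 to 4.73 with carnosine, and its part in the white signal was not tested either.

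**Figure D2:**
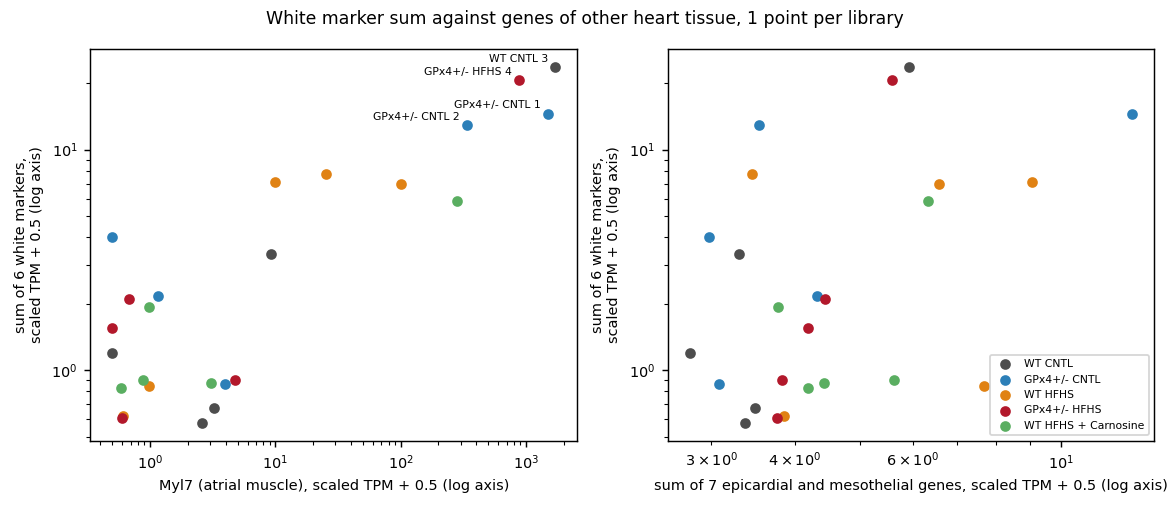
Sum of the 6 white markers (vertical axis, scaled TPM + 0.5, log axis) against Myl7 (left) and against the sum of 7 epicardial and mesothelial genes (right), both as scaled TPM + 0.5 on a log axis, with 1 point per library coloured by group. The 3 libraries with the most Myl7 have white sums of 14.1 to 23.1, and the 3 WT HFHS points between 6.51 and 7.28 lie at Myl7 of 9.50 to 99.6.

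No white marker differed detectably between groups. The 30 two-sided exact permutation tests of the 6 white markers (5 pairs of groups each, 5 against 5, on log2(scaled TPM + 0.5), not adjusted) gave p between 0.167 and 1.0, where the smallest p this design allows is 0.00794. The smallest of them was Cfd with carnosine, for which the groups averaged 0.158 and 1.14, and the difference was −0.99 on the log2(scaled TPM + 0.5) scale. The limma test of the same difference gave an adjusted p of 0.947, with a 95% interval from −2.10 to 0.12. For HFHS against CNTL in GPx4+/- mice, Cfd differed by −0.94 with an interval from −2.61 to 0.74 (limma, adjusted p = 0.590). That value was −0.45 without GPx4+/- CNTL replicate 1, −1.43 without GPx4+/- HFHS replicate 4 and −0.69 without the 6 libraries with high Myl7. In WT mice the same diet difference of Cfd was 0.10, and its direction turned when any of 6 single mice was left out, while without the 6 libraries with high Myl7 it was 0.70 (limma, adjusted p = 0.542). With carnosine Cfd differed by −1.0 without them (limma, adjusted p = 0.760). Car3 differed by 1.00 between GPx4+/- CNTL and WT CNTL, with an interval from −1.02 to 3.03 (limma, adjusted p = 0.909), and by 0.45 without GPx4+/- CNTL replicate 2, the library with liver mRNA. Without that library the diet difference of Car3 in GPx4+/- mice was −0.04 in place of −0.60. Leaving out the 6 libraries with high Myl7 gave 0.55 for that genotype difference of Car3, and −0.09 for diet in GPx4+/- mice and 0.95 in WT mice, where it had been 0.49 (limma, adjusted p = 0.926, 0.963 and 0.410). The narrowest 95% interval of Cfd or Car3 in any comparison was 2.22 log2 units wide from end to end.

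The start regions of white marker genes are shown because the markers moved together across libraries and are known targets of shared adipocyte regulators. PPARG, the master regulator of adipocyte differentiation, binds direct repeats of a nuclear receptor site, and C/EBP factors bind palindromes of TTGC and its complement. The 250 bases before the RefSeq start site (build GRCm38.p6, 5′ to 3′ on the gene's strand) were searched on both strands for the PPAR direct repeat with a spacer of 1 base, for its single site AGGTCA, for TTGCNNAA and for TATAAA, and matches are in capitals. The single site lies within the repeat. Windows were found for Adipoq, Cfd, Retn, Lep, Plin1 and Ucp1, and none was used for Car3 or Cidea.
Adipoq, chr16:23146286-23146535, plus strand: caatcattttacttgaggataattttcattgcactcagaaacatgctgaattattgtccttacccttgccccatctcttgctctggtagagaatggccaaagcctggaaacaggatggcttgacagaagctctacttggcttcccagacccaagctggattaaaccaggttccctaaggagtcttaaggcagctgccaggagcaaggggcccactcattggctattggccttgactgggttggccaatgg
Lep, chr6:29059971-29060220, plus strand: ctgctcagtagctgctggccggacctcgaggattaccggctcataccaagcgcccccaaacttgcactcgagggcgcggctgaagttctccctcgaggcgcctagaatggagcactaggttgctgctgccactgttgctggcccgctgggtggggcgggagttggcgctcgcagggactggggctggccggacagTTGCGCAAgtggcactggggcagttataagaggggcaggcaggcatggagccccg
Plin1, chr7:79732777-79733026, minus strand: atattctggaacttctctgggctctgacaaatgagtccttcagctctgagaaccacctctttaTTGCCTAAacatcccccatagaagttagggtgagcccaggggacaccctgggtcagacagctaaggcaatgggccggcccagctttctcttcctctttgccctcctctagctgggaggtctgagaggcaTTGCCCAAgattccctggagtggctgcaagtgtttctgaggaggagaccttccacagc
Ucp1, chr8:83290098-83290347, plus strand: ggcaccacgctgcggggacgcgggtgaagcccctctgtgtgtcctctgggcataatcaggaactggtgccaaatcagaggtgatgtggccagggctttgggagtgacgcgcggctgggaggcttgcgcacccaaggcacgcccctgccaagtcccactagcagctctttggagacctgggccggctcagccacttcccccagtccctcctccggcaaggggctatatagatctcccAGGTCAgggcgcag
TTGCNNAA was found once in Lep, beginning 55 bases before the start and reading the same on both strands, and at 2 places in Plin1, beginning 187 and 58 bases before it. N stands for any base, so a match need not be a palindrome, and the 2 in Plin1 were not. AGGTCA was found once in Ucp1, 14 bases before the start. None of the 4 motifs was found in the windows of Adipoq, Cfd and Retn. Over all 32851 windows, TTGCNNAA was in 9.56%, AGGTCA in 14.0%, TATAAA in 12.4% and the direct repeat in 0.0335%, so these matches are common letters and describe the windows only.

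The 2 brown markers were at opposite ends of the scale. Ucp1 encodes the uncoupling protein that makes brown adipocytes produce heat, and it was listed at 0 in 20 of 25 libraries. The 5 libraries above 0 were 1 in each group, with scaled TPM of 0.0254 in WT CNTL replicate 3, 0.0224 in GPx4+/- CNTL replicate 1, 0.0320 in WT HFHS replicate 4, 0.0266 in GPx4+/- HFHS replicate 2 and 0.0273 in WT HFHS + Carnosine replicate 2. The exact permutation p of Ucp1 was between 0.722 and 1.0 in its 5 comparisons. Of the 5 libraries, 3 had Myl7 over 50. Among the genes closest to Ucp1 in rank order were Gem (rho 0.693), Cd24a, Sgce, Pon2, Fut10, Lgals3 and Rpl10 (0.652), which rests on the 5 libraries that are not at 0.

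Cidea encodes a droplet protein that promotes the growth of lipid droplets in brown adipocytes. Scaled TPM of Cidea in WT mice was 25.2, 26.9, 24.3, 28.4 and 26.5 on CNTL, 32.8, 29.5, 32.7, 27.6 and 29.8 on HFHS and 30.0, 30.5, 29.7, 30.6 and 32.2 on HFHS with carnosine. Values of GPx4+/- mice were 20.8, 19.2, 21.6, 25.9 and 26.6 on CNTL and 31.4, 28.5, 27.7, 31.3 and 28.7 on HFHS. The lowest of the 25 libraries still held 58.4% of the highest, so that Cidea had none of the single high libraries seen in the white markers. Its rho with Adipoq was −0.18 and with Ucp1 −0.20, and the 6 libraries with high Myl7 held 22.8% of its total, close to their share of the libraries (24.0%). All of its signal was on the single transcript listed for it.

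Cidea mRNA was higher on the HFHS diet. The mean in WT mice was 26.3 ± 1.57 on CNTL, 30.5 ± 2.24 on HFHS and 30.6 ± 0.969 on HFHS with carnosine, and in GPx4+/- mice it was 22.8 ± 3.27 on CNTL and 29.5 ± 1.70 on HFHS (SD, n = 5 each). In GPx4+/- mice every HFHS value lay above every CNTL value, and the difference was 0.37 on the log2 scale (SE 0.0784, 1.29-fold, limma, adjusted p = 0.0128). Cidea was the only marker called, 1 of 3 tested, in a comparison in which 3.34% of all 11983 genes were called. Over both genotypes the difference was 0.29 (SE 0.0555, 1.22-fold, limma, adjusted p = 0.00295), again 1 of 3 tested markers beside a background of 8.33%. In WT mice it was 0.21 (SE 0.0784), which passed no threshold after adjustment over all genes (limma, adjusted p = 0.186) where 1.19% of genes were called, and the exact permutation p of that single comparison was 0.0159. The exact permutation p in GPx4+/- mice was 0.00794, the smallest that 5 against 5 allows. The diet differences of the 2 genotypes did not differ detectably (0.0% of genes called), with an interaction of 0.16 and a 95% interval from −0.07 to 0.39 (limma, adjusted p = 0.755).

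The call of Cidea in GPx4+/- mice changed with the libraries kept and with the scaling. The 2 lowest of all 25 values, 19.2 and 20.8, were GPx4+/- CNTL replicates 2 and 1, which had high Myl7, and replicate 2 also had the liver mRNA. Without the 6 libraries with Myl7 over 50, the difference in GPx4+/- mice was 0.23 (limma, adjusted p = 0.128) and was no longer called. With GPx4+/- CNTL replicate 1 or 2 alone left out it was still called, at 0.31 without replicate 2 and 0.34 without replicate 1 (limma, adjusted p = 0.0247 and 0.0425). On unscaled TPM with all libraries kept it was 0.27 and was not called (limma, adjusted p = 0.0896). Without the 6 libraries, the difference over both genotypes was 0.20 and was still called (limma, adjusted p = 0.0379). GPx4+/- HFHS replicate 4, with Myl7 of 886, had Cidea at 31.3, the second highest of its group, while WT CNTL replicate 3, with the most Myl7 (1705), had 24.3, the lowest of its group.

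No difference of Cidea with genotype or carnosine passed after adjustment over all genes. GPx4+/- CNTL differed from WT CNTL by −0.21 on the log2 scale (95% interval −0.37 to −0.04, limma, adjusted p = 0.729). That interval, for the single comparison, excluded 0 (limma, unadjusted p = 0.0161), and the exact permutation p was 0.0873. GPx4+/- HFHS differed from WT HFHS by −0.05 (interval −0.21 to 0.12, limma, adjusted p = 0.985). Both genotype comparisons called 0.0501% of all genes. With carnosine the difference was 0.01, with an interval from −0.12 to 0.13 (limma, adjusted p = 0.994), in a comparison that called 0.0% of genes, with 504 at an unadjusted p under 0.05. After its values were seen, the genes most like Cidea in rank order were also listed, and they were led by Pex19 (rho 0.875), a chaperone of peroxisome assembly, Fabp3 (0.860), the fatty acid binding protein of heart muscle, and Gna12 (0.859).

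**Figure D3:**
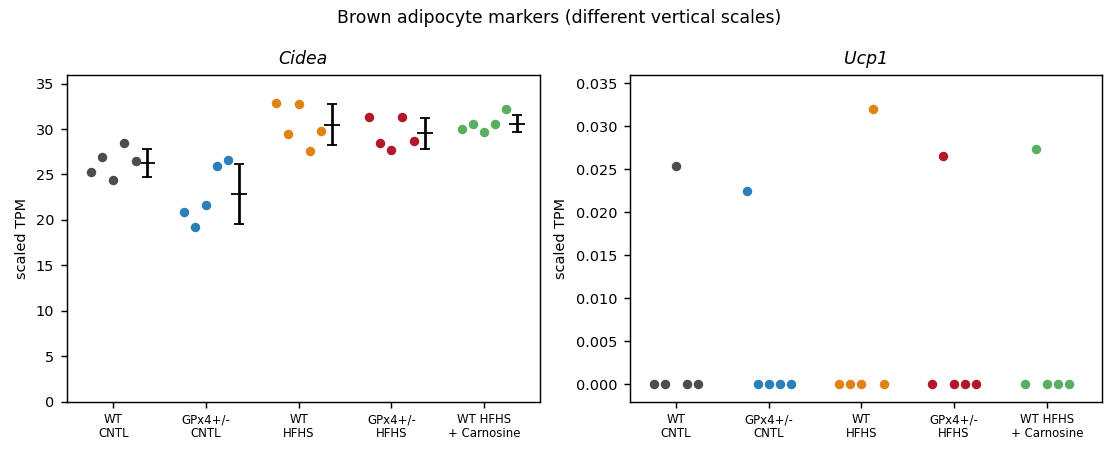
Scaled TPM of Cidea (left, axis from 0) and Ucp1 (right, axis to 0.036) in each library, by group, with the mean and SD of Cidea beside its points as a bar with error lines. The HFHS values of Cidea in GPx4+/- mice, from 27.7 to 31.4, all lie above the CNTL values, from 19.2 to 26.6, and Ucp1 is above 0 in 1 library of each group.

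**Figure D4:**
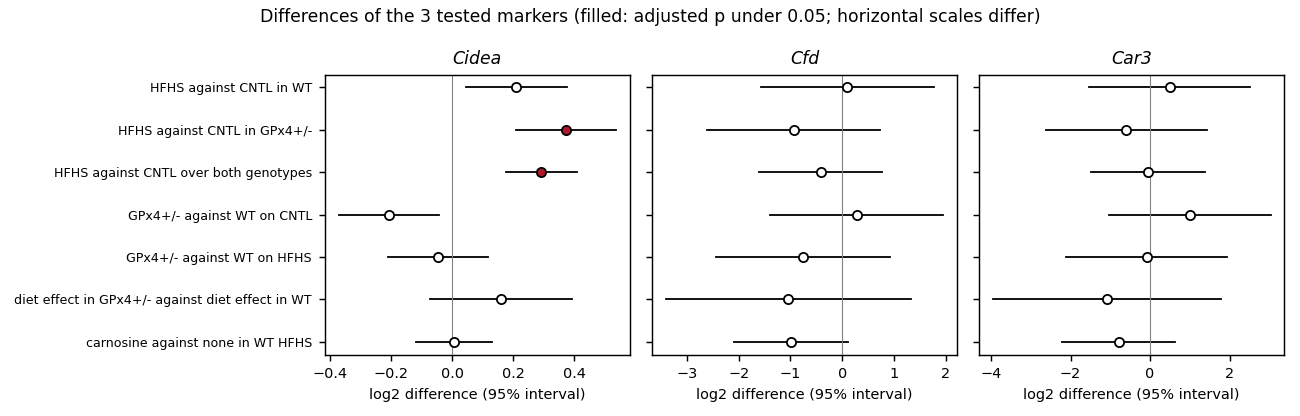
Difference on the log2(scaled TPM + 0.5) scale (horizontal axis, a different scale in each panel) with its 95% interval for the 3 tested markers in 7 comparisons (vertical axis), filled where limma's adjusted p was under 0.05. The 2 filled points are Cidea for HFHS against CNTL in GPx4+/- mice and over both genotypes, and the intervals of Cfd and Car3 include 0 throughout.

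Most of the other genes that adipocytes use for fat were at higher levels than the white markers. Of 10 genes of lipid droplets and lipid handling, 9 were tested, and the lowest level of these 9 in any library was 8.77 (Aqp7, the glycerol channel), while Cidec, the 1 not tested, was at 0 in 6 libraries. Lpl, the lipase that frees fatty acids from lipoproteins, was highest with a mean of 1780, and it fell by 0.28 on HFHS in WT mice (SE 0.0676, limma, adjusted p = 0.0462). Over both genotypes Lpl fell by 0.20 and Abhd5, the activator of adipose triglyceride lipase, rose by 0.17 (limma, adjusted p = 0.0150 and 0.0122). On unscaled TPM the difference of Abhd5 over both genotypes was 0.11 (limma, adjusted p = 0.214), and that of Lpl in WT mice was −0.28 and was called neither there nor with the replicate block (limma, adjusted p = 0.119 and 0.0845). Abhd5 rose in GPx4+/- mice by 0.22 and Cd36, the fatty acid transporter, by 0.28 (limma, adjusted p = 0.0358 and 0.0394). Without the 6 libraries with high Myl7, and so with fewer mice, the differences were 0.24 and 0.32 and neither was called (limma, adjusted p = 0.0666 and 0.0608). With all libraries, they were 0.11 and 0.17 on unscaled TPM (limma, adjusted p = 0.399 and 0.101), and neither was called there or with the replicate block (limma, adjusted p = 0.0610 and 0.0529). Of the 9 tested genes, 1 was called in WT mice, 2 in GPx4+/- mice, and 1 higher and 1 lower over both genotypes. In these comparisons 1.19%, 3.34% and 8.33% of all genes were called. The median difference of the 9 genes was −0.06 in WT and 0.0088 in GPx4+/- mice, beside 0.00025 and −0.0016 for all genes tested.

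Of 11 lipid synthesis genes, 10 were tested, and Dgat2, which makes triglyceride, was highest with a mean of 238. On HFHS, 1 of the 10 was called higher in WT mice, where 1.19% of all genes were called. In GPx4+/- mice 2 were higher and 1 lower (3.34% of all genes called), and over both genotypes 1 was higher and 1 lower (8.33%). Elovl6, the elongase that was not tested, lay between 0.112 and 0.538, and Pck1, which feeds glyceroneogenesis, between 0.0173 and 21.1, with the highest value in the library with liver mRNA. Me1, the malic enzyme that supplies NADPH, rose on HFHS by 0.37 in WT and by 0.36 in GPx4+/- mice (limma, adjusted p = 0.0173 and 0.00977). Acaca, the first enzyme of fatty acid synthesis, fell by 0.56 in GPx4+/- mice and by 0.41 over both genotypes (limma, adjusted p = 0.00243 and 0.000569). Gpd1, which makes glycerol 3-phosphate, rose by 0.42 in GPx4+/- mice (limma, adjusted p = 0.0468). Without the libraries with high Myl7, the differences of Me1 and Gpd1 in GPx4+/- mice were 0.38 and 0.38 and neither was called (limma, adjusted p = 0.0553 and 0.192). On unscaled TPM the difference of Me1 in GPx4+/- mice was 0.25 (limma, adjusted p = 0.0541). Gpd1 was also not called on unscaled TPM, with quantile normalization, with the replicate block or with array weights. Of 6 adipocyte transcription factors, among them Pparg with a mean of 8.01 and Klf15 with 38.1, none was called in any comparison, nor was any of 7 receptors of adipokines and related hormones, led by Cdh13 with a mean of 86.1, where at most 8.33% of all genes were called in any comparison. The median difference over both genotypes was −0.10 for synthesis, −0.03 for the factors and −0.01 for the receptors, beside −0.0024 for all genes.

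Of 12 other adipocyte-enriched genes, 9 were tested and 1 was called, in GPx4+/- mice and over both genotypes, where 3.34% and 8.33% of all genes were called. Adig encodes adipogenin, a small protein of adipocyte droplets. The WT values of Adig were 2.45, 2.07, 3.03, 2.23 and 4.10 on CNTL, 3.43, 4.25, 4.72, 3.34 and 4.24 on HFHS and 2.65, 1.53, 3.89, 2.87 and 3.43 on HFHS with carnosine. In GPx4+/- hearts they were 2.13, 1.65, 1.11, 1.94 and 1.76 on CNTL and 3.23, 3.84, 2.58, 4.32 and 2.80 on HFHS. In GPx4+/- mice all HFHS values again lay above all CNTL values, with a difference of 0.80 (SE 0.164, limma, adjusted p = 0.0115), and over both genotypes it was 0.64 (SE 0.116, adjusted p = 0.00201). Without the libraries with high Myl7 these were 0.79 (limma, adjusted p = 0.0549) and 0.68 (adjusted p = 0.00978). In WT mice the difference of Adig was 0.48 (limma, adjusted p = 0.153), and with carnosine it was −0.45 (adjusted p = 0.947). Like Cidea, Adig was above 0 in every library, and its highest library, WT HFHS replicate 3, had Myl7 at 0.101. The median of the 9 genes was 0.10 over both genotypes.

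Of 16 other brown adipocyte genes, 6 were tested. Cox7a1 and Cox8b, subunits of cytochrome c oxidase shared by brown fat and striated muscle, had means of 2155 and 1926. Ebf2, a factor of brown adipocyte precursors, rose by 0.23 over both genotypes (limma, adjusted p = 0.0378) from a mean level of 2.53, and was the only one of the 6 called in any comparison, where 8.33% of all genes were. Cited1, a transcriptional coactivator used as a marker of beige adipocytes, lay under the minimum and is named after its values were seen. Scaled TPM of Cited1 was 0.382 to 0.838 in the 10 CNTL mice and 0.0591 to 0.220 in the 10 HFHS mice without carnosine. These 2 sets did not overlap, and the share of all genes that separate in this way is not given here. The HFHS mice with carnosine ran from 0.0560 to 0.546 and overlapped both sets. In the fit with no minimum level Cited1 fell by 0.73 in WT and by 0.68 in GPx4+/- mice on the log2(scaled TPM + 0.5) scale (limma, adjusted p = 0.0108 and 0.00566), where 0.166% and 0.908% of 25881 genes were called. Levels of the list's other genes varied widely. Prdm16, a regulator of brown adipocyte identity, lay between 3.97 and 7.36 in all libraries, whereas the highest library was at 1.19 for Dio2, 0.889 for Elovl3, 0.207 for Zic1, 0.0779 for Otop1 and 0.0645 for Lhx8. Among other uncoupling proteins and the remaining Cide gene, Ucp2 had a mean of 85.2 and Ucp3, the muscle form, 46.7. Ucp3 fell by 0.62 over both genotypes on HFHS (SE 0.188, limma, adjusted p = 0.0476). It was the 1 gene called of the 3 tested on that list, in a comparison that called 8.33% of all genes. Without the libraries with high Myl7, the differences of Ebf2 and Ucp3 were 0.24 and −0.50 and neither was called (limma, adjusted p = 0.0898 and 0.200). They were also not called with the replicate block (limma, adjusted p = 0.0565 and 0.0641), nor was Ebf2 on unscaled TPM (0.19, limma, adjusted p = 0.175). In genotype, interaction and carnosine comparisons, in which 0.0% to 0.0501% of all genes were called, no gene of these lists was called. Of the lists for other cell types, 2 of 6 cardiomyocyte genes were called over both genotypes, and 1 of 4 tested genes of preadipocytes and adventitial fibroblasts. In that comparison 8.33% of all genes were called. Ttn and Myh6 of cardiomyocytes fell by 0.27 and 0.17, and Pdgfra of fibroblasts and preadipocytes rose by 0.29 (limma, adjusted p = 0.00123, 0.0314 and 0.0472). Myh6 was not called with quantile normalization (−0.12, limma, adjusted p = 0.212), nor was Pdgfra on unscaled TPM or with the replicate block (limma, adjusted p = 0.180 and 0.0704).

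**Figure D5:**
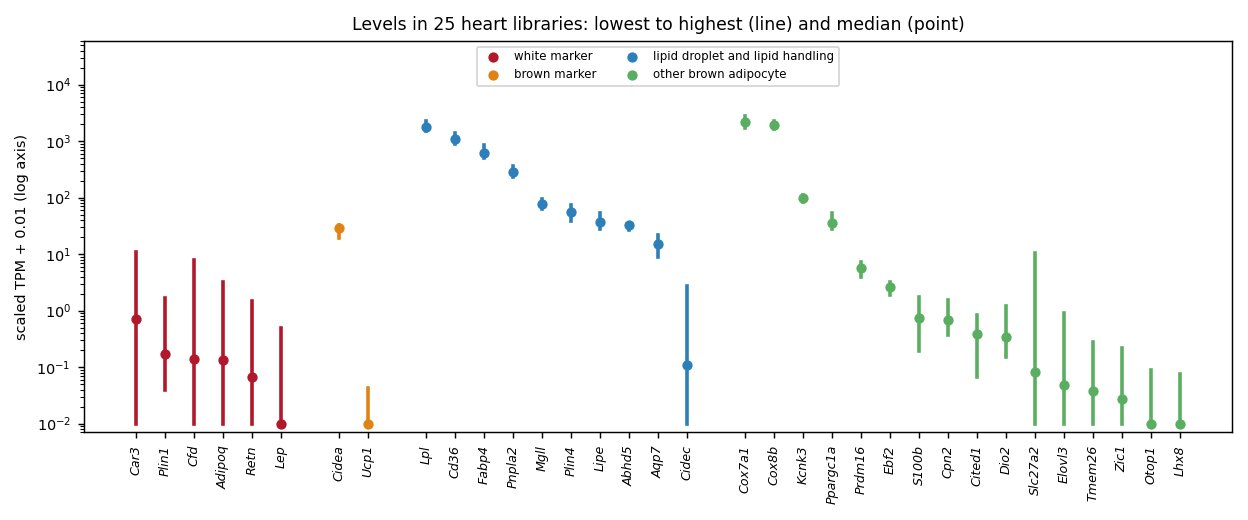
Lowest to highest (lines) and median (points) scaled TPM + 0.01 over the 25 libraries, on a log axis, for the white and brown markers, 10 genes of lipid droplets and lipid handling and 16 other brown adipocyte genes, along the horizontal axis. Most droplet and handling genes have short lines at high levels, while the white markers, Cidec and Slc27a2 have long lines that reach from near 0 to a few single high libraries.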

How the data were processed

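Messenger RNA of left ventricular tissue was sequenced from 25 mice. The authors deposited TPM for 119215 transcripts in each library, and the submitters' processing notes name kallisto 0.43.1, sleuth 0.30.0 and GRCm38, whereas the paper's methods describe other tools for its own tests. Columns were matched to mice by the library name in the header. The table's transcript length, a deposited pooled value, was not used in any test.

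Of the transcripts, 116772 matched GENCODE M21 genes and 2443 did not and were left out. TPM were summed per gene and divided by median-ratio factors over 11879 genes (0.865 to 1.16), because mitochondrial transcripts took 31.3% to 48.7% of a library. The 11983 genes whose scaled TPM averaged 1 or more were tested with limma 3.58.1 in R 4.3.3 on log2(scaled TPM + 0.5), with a mean-variance trend and Benjamini-Hochberg adjustment over all genes at 0.05. The 20 mice without carnosine formed one fit with 4 groups and the carnosine comparison another with 10 mice, where limma took the place of the paper's count test, because TPM are not counts. Single markers were compared by two-sided exact permutation (scipy 1.17.1).

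The script was tested on simulated data. The markers, lists and tests were chosen with earlier results of these data known. The text names the 8 markers, called genes of each list (at most 4) with the list's most abundant gene where described, and the 8 genes most like Adipoq and Ucp1, of which 1 is not reported here. Alternatives were unscaled TPM, quantile normalization, a pseudocount of 0.1, no minimum or a minimum of 5, all 25 mice in one fit, a replicate block, array weights and each mouse left out. Leaving out the 6 libraries with Myl7 over 50 was chosen after seeing the data. The labels number separate mice. Promoter sequences are from RefSeq.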

Additional observations from a re-analysis of the deposited data

Results flagged for a closer look

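In groups of 5, a library was flagged where its gap to the nearest other value was over 0.71 of the group's range (Dixon's 95% value). Of 45 groups tested (8 markers and Cidec in 5 groups), 27 were flagged, and each flagged library was the highest of its group. Chance flags about 1 in 20 groups of normally spread values, a rate that does not hold for skewed levels with many at 0. In 6 of the 27 (Ucp1 in each group and Lep in WT CNTL) the other 4 values were at 0, so the gap was the whole range by construction. The markers also follow each other, so the 27 are not independent.

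WT CNTL replicate 3 was flagged for Adipoq (0.853 of the range), Cfd (0.854), Retn (0.859), Plin1 (0.885), Car3 (0.899) and Cidec (0.942), and for Lep and Ucp1 (1.0 each, with the others at 0). GPx4+/- HFHS replicate 4 was flagged for Adipoq (0.967), Cfd (0.975), Retn (0.963), Lep (0.947), Plin1 (0.947), Car3 (0.874) and Cidec (0.962). WT HFHS + Carnosine replicate 2 was flagged for Adipoq (0.772), Retn (0.899), Lep (0.907), Plin1 (0.752), Car3 (0.783), Ucp1 (1.0) and Cidec (0.910). GPx4+/- CNTL replicate 1 was flagged for Cfd (0.761), Plin1 (0.731) and Ucp1 (1.0). These 4 libraries had Myl7 of 1705, 886, 283 and 1498, and the part of atrial or adjoining tissue in these values was not tested. Ucp1 was also flagged in WT HFHS replicate 4 and GPx4+/- HFHS replicate 2 (1.0 each), where it was above 0 in that library alone of its group. No library was flagged for Cidea.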

How the results depend on the processing

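Cidea was higher on HFHS in WT mice, in GPx4+/- mice and over both genotypes under every alternative run. Over both genotypes it was called under all 29 alternatives, with differences from 0.20 to 0.32, in GPx4+/- mice under 17 of 19 and in WT mice under 0 of 19 (adjusted p from 0.138 to 0.388). In GPx4+/- mice, 0 markers were called on unscaled TPM (Cidea 0.27, adjusted p = 0.0896) and 0 without the 6 libraries with Myl7 over 50 (Cidea 0.23, adjusted p = 0.128, chosen after seeing the data). On unscaled TPM the median of all genes in that comparison lay at −0.10, and 37 of 424 calls were higher, against 261 of 400 on scaled TPM. The cause of the lost calls was not tested. With each mouse left out, Cidea in GPx4+/- mice ranged from 0.31 to 0.43.

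Of the differences that were never called, 6 changed direction. With single mice left out, Cfd for diet in WT ranged from −0.21 to 0.82, Cfd for genotype on CNTL from −0.21 to 0.99, Car3 for diet over both genotypes from −0.41 to 0.33, Car3 for genotype on HFHS from −0.79 to 0.34 and Cidea with carnosine from −0.027 to 0.034. Without the libraries with Myl7 over 50, Cfd and Car3 over both genotypes were 0.0051 and 0.43. With array weights, Car3 over both genotypes was 0.060 and Cidea with carnosine −0.014, and on unscaled TPM the latter was −0.064. With no minimum level, the 5 markers under it had adjusted p of at least 0.667 in all comparisons (limma).

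Replicate numbers pair no samples by the labels. The correlation of same-numbered mice across groups ran from −0.34 to 0.23 and was over 0.1 in 10 of 50 pairs. With the replicate block, 1 marker (Cidea) was called in GPx4+/- mice (adjusted p = 0.0253) and 1 over both genotypes (adjusted p = 0.00700), and 68, 306 and 876 of all genes were called in WT, in GPx4+/- and over both, in place of 142, 400 and 998. Of 19 called differences of other named genes, all kept their direction, and 11 were called on unscaled TPM, 17 with quantile normalization, 12 with the block, 18 with array weights and 11 without the libraries with Myl7 over 50. Over all alternatives, WT calls ranged from 36 (without WT CNTL replicate 2) to 405 (array weights) and GPx4+/- calls from 191 (without GPx4+/- HFHS replicate 5) to 484 (without GPx4+/- CNTL replicate 2).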

Other observations

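After the values were seen, the level of each other white marker and of Cidec was divided by that of Adipoq, as a description with no test. Group sums of Plin1 gave ratios from 0.549 to 0.859, and those of Retn from 0.292 to 0.595. For Car3 the group ratios ran from 2.72 to 6.47, and for Cidec from 0.705 to 1.43. Lep and Cfd were picked for more detail with these values known. Summed over the 5 libraries of a group, the ratio of Lep to Adipoq in WT mice was 0.0742 on CNTL, 0.166 on HFHS and 0.125 on HFHS with carnosine. In GPx4+/- mice it was 0.0319 on CNTL and 0.154 on HFHS. In the 10 libraries with Adipoq of at least 0.4, below which a ratio rests on very little signal, the ratio of Lep was 0, 0.0331, 0.0882, 0.0915 and 0 in the CNTL mice (in the order WT CNTL 1, GPx4+/- CNTL 1, WT CNTL 3, GPx4+/- CNTL 3 and 4). It was 0.134, 0.170 and 0.210 in WT HFHS replicates 1, 2 and 4, 0.150 in GPx4+/- HFHS replicate 4 and 0.148 in WT HFHS + Carnosine replicate 2. Among these 10 libraries the HFHS values lay above the CNTL values, with a limit of 0.4 that was set after the values were seen. Below that limit, WT HFHS + Carnosine replicate 1 had Lep at 0.0133 with Adipoq at 0.221, and WT HFHS + Carnosine replicate 5, WT HFHS replicate 5 and GPx4+/- HFHS replicate 2 had Lep at 0 with Adipoq at 0.120, 0.109 and 0.104. The WT CNTL ratio rests on replicate 3, since Lep was at 0 in the other 4 mice of that group. Most Lep of the carnosine group was in replicate 2 (0.143 of 0.167) and most of GPx4+/- HFHS in replicate 4 (0.476 of 0.513), so these ratios too rest on 1 library.

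The ratio of Cfd to Adipoq went another way. Summed over a group, it was 2.60 in WT CNTL, 2.66 in GPx4+/- CNTL and 2.23 in WT HFHS, against 0.592 in WT HFHS + Carnosine and 0.763 in GPx4+/- HFHS. Single libraries weigh heavily in 4 of these sums, namely WT CNTL replicate 3 with a ratio of 2.66, GPx4+/- CNTL replicate 1 with 3.14, WT HFHS + Carnosine replicate 2 with 0.412 and GPx4+/- HFHS replicate 4 with 0.769. GPx4+/- CNTL replicate 3 had a ratio of 0.533. Below the limit of 0.4, WT HFHS + Carnosine replicate 1 had Cfd at 0.350 with Adipoq at 0.221, so Cfd was above Adipoq there. GPx4+/- CNTL replicate 2 had Cfd at 1.21 with Adipoq at 0.137.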
